A study of Mus musculus with 12 samples.

Results

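The Lce3 genes, Lce3a to Lce3f, are 6 of the 55416 gene identifiers in each deposited table, and they were taken as the rows whose Ensembl identifiers carry these symbols. They were selected on their expected counts across the 4 groups, so their levels and fold changes are given as a description and carry no test. The material was ear skin of C57BL/6 mice 8 to 12 weeks old at day 6, in 12 bulk mRNA libraries that fall into 4 groups of 3. The groups IMQ_Veh, IMQ_GW3965 and IMQ_Troglitazone received imiquimod, a Toll-like receptor 7 agonist that provokes psoriasis-like inflammation, as 20.8 mg of Aldara cream (5% imiquimod) spread on the back of both ears every day, with tissue taken 1 day after the final application. The labels of the 3 libraries called UTX_Veh name no imiquimod and do not spell out UTX. IMQ_GW3965 also received the liver X receptor agonist GW3965 at 20 mg/kg, and IMQ_Troglitazone received the PPARγ agonist troglitazone at 150 mg/kg, each injected into the peritoneum daily from day 3. UTX_Veh and IMQ_Veh carry the DMSO vehicle in their labels. The labels do not tie the 3 libraries of a group to separate animals, so every spread and p-value below is that between libraries and may be partly technical.

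Late cornified envelope (LCE) genes encode small cysteine-, glycine- and serine-rich proteins that transglutaminases crosslink into the protein shell under the membrane of dying keratinocytes in the outermost epidermis. The LCE1 group belongs to the normal barrier of skin, whereas the LCE3 group is known to be low in resting skin and to be made after barrier injury and in psoriatic lesions. Human LCE3 proteins have been ascribed antibacterial activity, and a common deletion of a pair of human LCE3 genes is associated with psoriasis. The name repair-type for the mouse genes rests on such knowledge, because no wound or barrier measurement belongs to these files.

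All 6 genes lie on chromosome 3 of GRCm38 within 68.1 kb, at positions 92925287 to 92993426, each with 1 transcript of 2 exons in GENCODE M21 and a coding sequence of 297 bases including the stop codon. Lce3a (ENSMUSG00000054325, 92925287 to 92926230) is on the minus strand. The other 5 are on the plus strand, namely Lce3b (ENSMUSG00000042031, 92932979 to 92934097), Lce3c (ENSMUSG00000045475, 92944486 to 92945733), Lce3d (ENSMUSG00000043472, 92957390 to 92958505), Lce3e (ENSMUSG00000074433, 92967061 to 92968281) and Lce3f (ENSMUSG00000068885, 92992226 to 92993426). Lce3a and Lce3b are therefore neighbours that are transcribed away from each other, with starts 6749 bases apart. The stretch holds 9 annotated genes, and the 6 Lce3 genes are the only protein-coding ones among them.

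The 110 bases that precede each RefSeq transcription start are shown because the members had nearly the same coding sequence but different sequence upstream. Lce3a and Lce3b were also further below IMQ_Veh with either drug than the other 4 members, a split chosen after the values were seen. Any link between these sequences and the levels was not tested. The printed bases are from RefSeq, build GRCm38.p6, written in the direction of transcription, and capitals mark the TATA-like letters ATAAAA. The RefSeq start of Lce3f, 92992217, differs from that of GENCODE M21.
Lce3a, chr3:92926231-92926340, minus strand: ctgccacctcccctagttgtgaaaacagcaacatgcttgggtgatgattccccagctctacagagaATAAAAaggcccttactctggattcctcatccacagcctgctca
Lce3b, chr3:92932869-92932978, plus strand: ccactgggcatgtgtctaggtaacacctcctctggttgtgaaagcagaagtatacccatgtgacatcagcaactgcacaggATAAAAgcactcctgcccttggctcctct
Lce3c, chr3:92944376-92944485, plus strand: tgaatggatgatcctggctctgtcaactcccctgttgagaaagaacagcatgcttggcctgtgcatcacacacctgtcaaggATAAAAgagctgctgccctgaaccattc
Lce3d, chr3:92957280-92957389, plus strand: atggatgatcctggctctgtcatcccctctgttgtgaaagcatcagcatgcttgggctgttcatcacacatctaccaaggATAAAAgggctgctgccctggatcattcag
Lce3e, chr3:92966951-92967060, plus strand: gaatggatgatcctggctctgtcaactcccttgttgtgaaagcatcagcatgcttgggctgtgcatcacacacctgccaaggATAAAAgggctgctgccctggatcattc
Lce3f, chr3:92992107-92992216, plus strand: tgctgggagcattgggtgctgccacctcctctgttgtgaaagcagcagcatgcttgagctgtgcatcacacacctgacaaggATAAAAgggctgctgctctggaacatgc

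ATAAAA was found in the 250 bases upstream of 6 of 6 members, against 17.0% of 32851 mouse promoters of that length searched on both strands. Counted from the first transcribed base, it began at -28 in Lce3c, Lce3e and Lce3f, at -29 in Lce3b, at -30 in Lce3d and at -44 in Lce3a, and Lce3f had another copy at -207. On the transcribed strand between -40 and -16 it was present in 5 of 6 members and in 1.7% of all promoters. The longer run AGGATAAAAG was shared by Lce3b to Lce3f and occurred in 29 promoters in all. CAAGGATAAAAG was shared by Lce3c to Lce3f and occurred in 5 promoters in all, so Lce3b has a shorter form of the run and Lce3a only its core. The longest run shared by Lce3a and Lce3b was TTCCTGGTTCC, which none of the other 4 members held and which occurred in 26 promoters in all. Among other motifs searched on both strands, TGANTCA (AP-1) and TTCCNGGAA (STAT) were each found in 0 of 6 members, against 6.7% and 0.9% of promoters. TTGCNNAA (C/EBP) was found in Lce3f alone, at -155, against 9.6% of promoters. These are matches of letters in this window and do not show binding.

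The coding sequences were 94.3% (Lce3a and Lce3b) to 99.3% (Lce3d and Lce3f) identical. Upstream, Lce3c, Lce3d and Lce3e were 75.2% to 82.8% identical to each other over 250 bases, and Lce3f was 59.8% to 64.2% identical to those 3. Lce3a and Lce3b were 50.9% to 56.5% identical to every member, including 52.6% to each other. For reference, alignments of the 6 Lce3 upstream stretches with those of 14 Lce1 and Lce6a genes gave 41.4% to 53.7%, with a median of 48.4%. In the coding sequence the pairs among Lce3c to Lce3f were 97.6% to 99.3% identical, the pairs with Lce3b 94.3% to 97.3%, and those of Lce3a with Lce3c to Lce3f 96.6% to 98.0%. Lce3b was thus the least like the others in coding sequence, and the gaps were wider upstream.

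**Figure D1:**
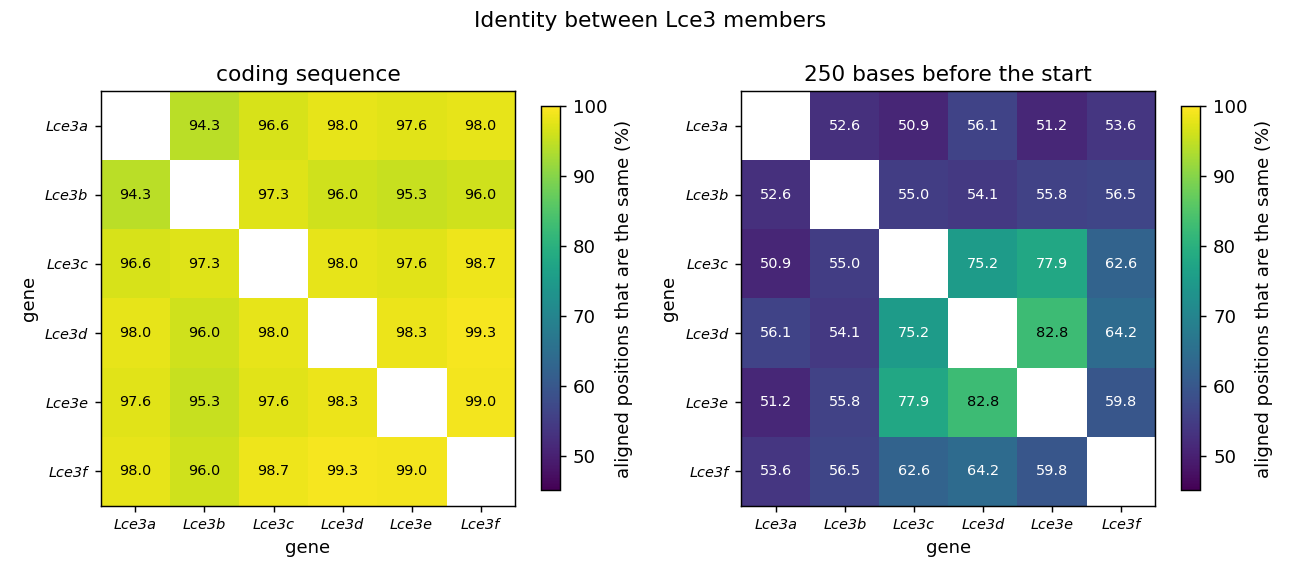
Percent of aligned positions that are the same for each pair of Lce3 genes, in the coding sequence (left, axes are genes) and in the 250 bases before the transcription start (right), on 1 colour scale. The coding sequences are 94.3% to 99.3% identical, while upstream only pairs among Lce3c, Lce3d, Lce3e and Lce3f are above 59%.

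This likeness bears on how the counts could be assigned, because RSEM divides a read that matches several genes among them by estimation. Of all 100-base words in the transcript, 43.0% of those in Lce3f, 36.4% in Lce3e, 28.3% in Lce3d and 24.1% in Lce3c also occurred in another member, against 1.1% in Lce3b and 0.0% in Lce3a. Of 50-base words the share was 19.0% in Lce3a and 12.1% in Lce3b, against 35.7% (Lce3c) to 49.3% (Lce3d) in the others. With any gene outside the family the share was 0.0% for every member at these lengths. Read length is not given, so which length applies is not known. The expected count was not whole (tolerance 0.005) in 12 of 12 libraries for Lce3d, Lce3e and Lce3f, in 10 for Lce3c, in 7 for Lce3a and in 4 for Lce3b. The sum over the 6 members was whole (tolerance 0.025) in 12 of 12 libraries. The sum of Lce3a and Lce3b was whole in 5 of 12 and that of Lce3c to Lce3f in 5 of 12, so some reads were also divided between these subsets. The levels of single members, and to a lesser degree of the subsets, depend on that division, and the family sum does not.

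Across libraries the deposited expected counts summed to 18242074 to 25641602. Library IMQ_GW3965 3 stood apart with 11.6% of its counts in 1 unnamed gene, and IMQ_Veh 3 with a higher share of muscle transcripts than the other IMQ_Veh libraries (0.525% against 0.13% and 0.142%). Between libraries of a group the chi-square over genes was at least 8.29 per degree of freedom, so no pair looked like 1 library deposited more than once. Keratinocyte markers (14 genes, all detected) summed to 25800 to 29900 CPM (counts scaled to library size, defined below) in UTX_Veh and to 55400 to 77600 in the 9 imiquimod libraries, so the tissue label fits these markers. Single markers went both ways, with log2 folds of IMQ_Veh over UTX_Veh from -2.62 (Krt15) to 4.32 (Krt1) and a median of 0.48. In bulk tissue, fewer cells of a type and less RNA per cell cannot be told apart.

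In UTX_Veh the family was near the limit of detection except for Lce3c. CPM are rounded expected counts relative to library size, scaled by TMM factors. Lce3c had 4.01, 3.22 and 3.08 CPM in replicates 1 to 3, from 250 expected counts in all. Lce3a had 0.157, 0.0836 and 0.256 CPM, and Lce3b had 0.354, 0 and 0.0855 CPM. The count of 0 for Lce3b allows up to 0.144 CPM (3 counts, before TMM scaling, counting error only). Lce3d, Lce3e and Lce3f ranged from 0.0418 to 0.786 CPM, and each was highest in replicate 1. Summed over the 3 libraries, the members other than Lce3c had 11 (Lce3b), 12 (Lce3a), 21.4 (Lce3f), 25.3 (Lce3e) and 25.8 (Lce3d) expected counts, so their fold changes over UTX_Veh rest on few reads. In TPM, which is per transcript length and allows genes to be compared, Lce3c stood at 16.4 ± 2.47 (SD, n = 3) and made up 61.6% to 91.5% of the family, followed by Lce3d at 2.09 ± 2.42. The remaining 4 were between 0.717 and 1.48 TPM, and neighbours in the order from Lce3d downward did not differ beyond their spread.

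In IMQ_Veh all 6 members were well above the limit of detection. Lce3c had 217, 133 and 165 CPM, Lce3b had 164, 107 and 118 CPM, and Lce3a had 97.5, 62.1 and 70.2 CPM. Lce3d had 133, 87.4 and 102 CPM, Lce3e 146.5, 69.9 and 116 CPM, and Lce3f 128, 67.4 and 95.2 CPM. Replicate 1 was highest and replicate 2 lowest for every member, and every value lay above all 3 UTX_Veh values of the same gene. In TPM the order was Lce3c (563 ± 112), Lce3d (444 ± 74.6), Lce3b (430 ± 77.1), Lce3e (327 ± 102), Lce3f (283 ± 76.2) and Lce3a (264 ± 49.6), and no neighbours in it differed beyond their spread. Lce3c made up 24.1% to 24.7% of family TPM in IMQ_Veh, and Lce3b moved from the lowest place in UTX_Veh to the third.

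The log2 fold of IMQ_Veh over UTX_Veh was 9.69 ± 0.94 (SE) for Lce3b, 8.81 ± 0.86 for Lce3a, 8.36 ± 0.47 for Lce3f, 8.26 ± 0.44 for Lce3e, 8.21 ± 0.46 for Lce3d and 5.64 ± 0.24 for Lce3c, with n = 3 per group. The lower fold of Lce3c goes with its higher level in UTX_Veh and not with a lower level in IMQ_Veh. All 6 passed the edgeR quasi-likelihood test at an adjusted p under 0.05 upward, where 33% of 17130 genes did (61.9% in either direction), and all 6 did not overlap between the groups, where 34.7% of genes were higher in that way. These calls are from the contrast used to choose the genes, and nothing is read from them. Their median log2 fold was 8.31, against 0.008 over all genes tested. Without UTX_Veh replicate 1, which held most of the few reads, the folds of Lce3b, Lce3d and Lce3e were 11.39, 9.66 and 8.99. The names of the libraries hold a field, L001 or L009, called the lane field here from its form alone. Among libraries with the same lane field, the log2 differences were 5.19 (Lce3c) to 9.56 (Lce3b) in L001 and 5.92 (Lce3c) to 10 (Lce3b) in L009.

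**Figure D2:**
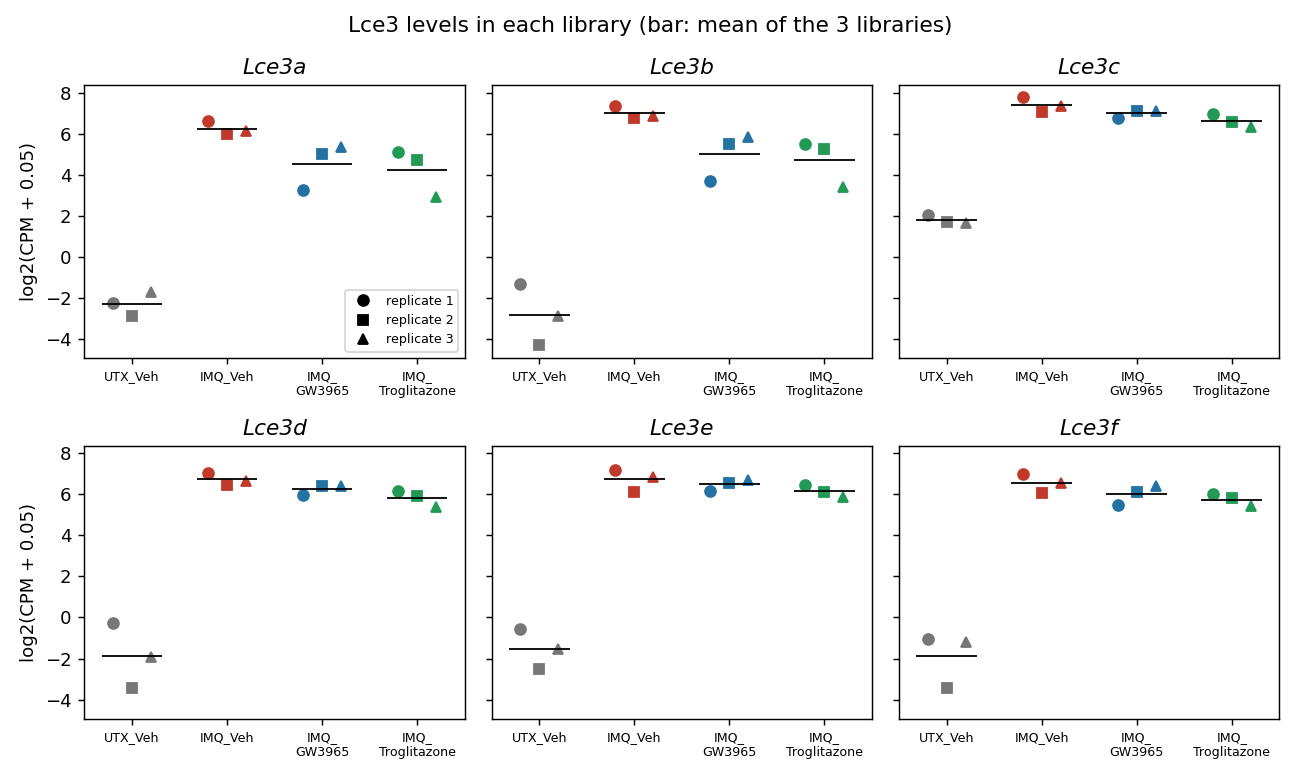
Level of each Lce3 gene in each of the 12 libraries, as log2(CPM + 0.05), by group, with symbols for replicates and a bar at the mean of the 3 log values. Every imiquimod library is above every UTX_Veh library for each gene, Lce3c alone is above 3 CPM in UTX_Veh, and Lce3a and Lce3b are lowest in IMQ_GW3965 replicate 1 and IMQ_Troglitazone replicate 3.

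With either drug the members stayed far above UTX_Veh but were lower on average than in IMQ_Veh, and Lce3a and Lce3b, the divergent pair at one end of the cluster, showed the largest gap. Lce3b had 13.0, 45.3 and 57.2 CPM in IMQ_GW3965 and 45.6, 38.3 and 10.6 CPM in IMQ_Troglitazone. Lce3a had 9.63, 31.9 and 40.5 CPM in IMQ_GW3965 and 33.7, 26.2 and 7.55 CPM in IMQ_Troglitazone. All 6 drug libraries were below all 3 IMQ_Veh libraries for both genes, and IMQ_GW3965 replicate 1 and IMQ_Troglitazone replicate 3 were the lowest of the 6. The group means were 35.7% (Lce3a) and 29.7% (Lce3b) of IMQ_Veh with GW3965, and 29.4% and 24.3% with troglitazone. As log2 differences from IMQ_Veh these were -1.49 ± 0.52 (SE) and -1.76 ± 0.55 with GW3965, and -1.77 ± 0.52 and -2.04 ± 0.55 with troglitazone.

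Lce3c, the member with the highest level in every group, had 107, 139 and 138.5 CPM in IMQ_GW3965 and 123, 94.5 and 80.5 CPM in IMQ_Troglitazone, where all 3 troglitazone libraries were below IMQ_Veh and the GW3965 libraries overlapped it. Lce3d had 62.0, 83.7 and 84.2 CPM with GW3965 and 70.6, 60.7 and 42.3 CPM with troglitazone, all below IMQ_Veh. For Lce3f the values were 44.3, 70.3 and 84.7 CPM with GW3965, overlapping IMQ_Veh, and 63.8, 56.1 and 42.6 CPM with troglitazone, all below it. Lce3e, at 71.2, 94.5 and 105 CPM with GW3965 and 88.5, 68.6 and 58.5 CPM with troglitazone, overlapped IMQ_Veh in both. The means of these 4 members were 68.5% (Lce3f) to 81.5% (Lce3e) of IMQ_Veh with GW3965 and 53.9% (Lce3d) to 64.8% (Lce3e) with troglitazone. Their log2 differences from IMQ_Veh with GW3965 were -0.42 ± 0.19 (SE) for Lce3c, -0.49 ± 0.29 for Lce3d, -0.29 ± 0.27 for Lce3e and -0.55 ± 0.29 for Lce3f. With troglitazone they were -0.79 ± 0.19, -0.89 ± 0.29, -0.62 ± 0.27 and -0.84 ± 0.29 in the same order.

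Both drug comparisons use the same IMQ_Veh libraries, so the likeness of their values is not independent. In IMQ_GW3965 against IMQ_Veh, 0 of 6 members passed edgeR's test, where 6.59% of all genes did (3.71% higher and 2.88% lower). At an unadjusted p under 0.05 there were 3 members, and the share of all genes at that threshold is not given here. Limma-voom called 1 member and DESeq2 0, where DESeq2 called 2222 of 17130 genes. The limma-voom total over all genes is not given here. In IMQ_Troglitazone against IMQ_Veh edgeR called 2, Lce3b and Lce3c, lower, where 4.65% of genes were lower and 4.69% higher (9.34% in either direction). With the replicate number as a block, edgeR called 1 member there, Lce3c. Without IMQ_Veh replicate 1, IMQ_Troglitazone replicate 2 or IMQ_Troglitazone replicate 3 the count was 0. Of these runs the first called 162 of 17521 genes and the last 252 of 17538. Without IMQ_Veh replicate 2 or IMQ_Troglitazone replicate 1 the member count was 1, and the latter run called 750 of 17546 genes. Without IMQ_Veh replicate 3 it was 4, in a run that called 4460 of 17518 genes. For GW3965 the member count was 1 without IMQ_Veh replicate 3, where 3645 of 17518 genes were called. By overlap, 3 members (Lce3a, Lce3b, Lce3d) lay wholly below IMQ_Veh with GW3965, where 12% of genes did, and 5 (all but Lce3e) with troglitazone, where 14% did. The rule used these contrasts, and nothing is read from the counts. The median log2 difference of the 6 members was -0.52 with GW3965 and -0.87 with troglitazone, against -0.011 and -0.018 over all genes.

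**Figure D3:**
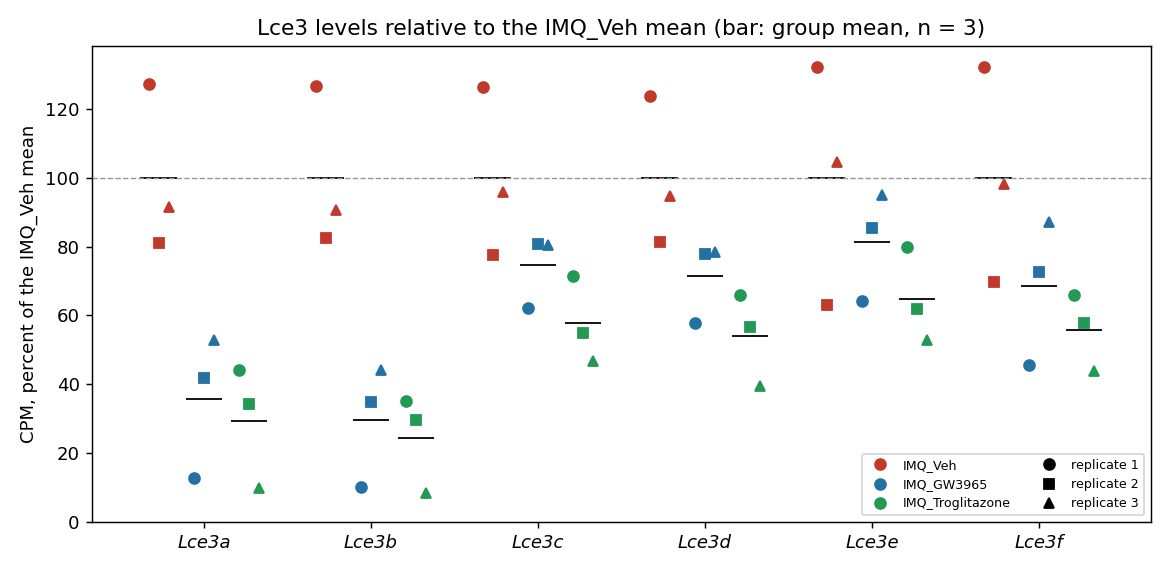
CPM of each Lce3 gene in the 9 imiquimod libraries as a percent of that gene's IMQ_Veh mean (linear axis from 0, points are libraries, bars are group means, dashed line at 100). Lce3a and Lce3b lie between 8% and 53% in the 6 drug libraries, while Lce3c to Lce3f reach up to 95% and overlap IMQ_Veh in part.

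The smaller of these differences were unlike between the L001 and the L009 libraries. IMQ_Veh replicate 2, the lowest IMQ_Veh library for every member, is the only IMQ_Veh library with the field L001. Within L001, Lce3e was 0.31 higher (log2) with GW3965 and 0.04 higher with troglitazone than in that library, and within L009 it was at -0.46 and -0.93. Lce3c, Lce3d and Lce3f were at -0.13, -0.27 and -0.14 with GW3965 in L001 and at -0.45, -0.47 and -0.65 in L009. With troglitazone they were at -0.42, -0.68 and -0.37 in L001 and at -1, -0.94 and -0.98 in L009. Lce3a and Lce3b were lower under both lane fields, at -1.65 and -1.97 with GW3965 in L001 and -1.37 and -1.62 in L009, and at -1.96 and -2.28 with troglitazone in L001 and -1.66 and -1.86 in L009. Each of these values within a lane field rests on 1 library on one side and has no test.

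The share of Lce3a and Lce3b together in the family's expected counts differed between the groups in the same way. This split of the family was chosen after the values were seen, and some reads were divided across it, as described above. In IMQ_Veh the pair held 29.5%, 32.1% and 28.2% of the family's counts. With GW3965 it held 7.4%, 16.6% and 19.1%, and with troglitazone 18.7%, 18.7% and 7.5%, all below the lowest IMQ_Veh value. In UTX_Veh it held 8.0% (exact 95% binomial interval 4.3% to 13.3%), 2.4% (0.3% to 8.3%) and 8.0% (3.5% to 15.2%) of 162, 84 and 100 reads. In the 9 imiquimod libraries, with 5896 to 17094 family reads each, the intervals were at most 1.8 percentage points wide, and all intervals cover counting error only.

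**Figure D4:**
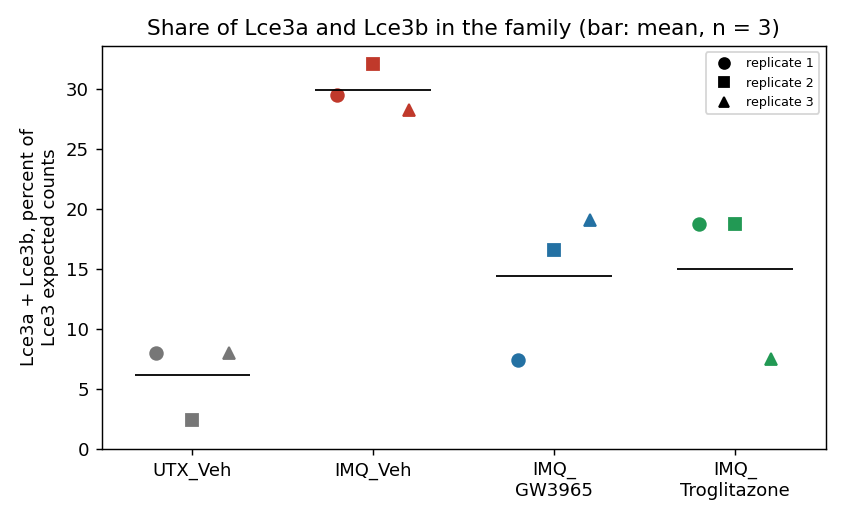
Expected counts of Lce3a and Lce3b together as a percent of the counts of all 6 Lce3 genes, by library and group (linear axis from 0, bars are means). The 3 IMQ_Veh libraries sit at 28.2% to 32.1%, and the 6 drug libraries at 7.4% to 19.1%, with 1 low library in each drug group.

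Among libraries with the same lane field the order was alike, at 32.1% for the IMQ_Veh library of L001 against 7.4% to 19.1% in the 4 drug libraries of L001, and at 29.5% and 28.2% in L009 against 16.6% and 18.7%. Summed CPM of the pair were 206 ± 49.0 (SD) in IMQ_Veh, 65.8 ± 38.8 with GW3965 and 54.0 ± 31.9 with troglitazone, which are 31.9% and 26.2% of IMQ_Veh. For Lce3c to Lce3f the sums were 487 ± 134, 362 ± 67.8 and 283 ± 61.0, or 74.3% and 58.1%. Without IMQ_GW3965 replicate 1 the pair was at 42.4% and the other 4 at 82.2% of IMQ_Veh, and without IMQ_Troglitazone replicate 3 they were at 34.9% and 64.2%. The ratio of Lce3b to Lce3a was alike in all 6 drug libraries, at a log2 of 0.43 to 0.55 in expected counts, and was 0.74 to 0.78 in the 3 IMQ_Veh libraries.

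Other features moved with Lce3a and Lce3b across the drug libraries. The stress keratins Krt6a, Krt6b, Krt16 and Krt17, which keratinocytes make on injury, summed to 6610 CPM in IMQ_GW3965 replicate 1 and 3900 in IMQ_Troglitazone replicate 3, against 9170 to 11300 in the other 4 drug libraries, 23100 to 31300 in IMQ_Veh and 209 to 325 in UTX_Veh. Neutrophil markers (10 genes) summed to 346 and 453 CPM in those same libraries, against 1430 to 2080 in the other drug libraries, 5790 to 10100 in IMQ_Veh and 83.1 to 101 in UTX_Veh. In the imiquimod libraries most of that sum was S100a8 and S100a9, calcium-binding proteins that inflamed keratinocytes also make, at 5640 to 9980 CPM together in IMQ_Veh. In UTX_Veh most of it was Il1r2, a decoy receptor for interleukin-1, at 63.9 ± 1.44 CPM (SD), so the sums hold different genes. The other 8 markers summed to 103 and 105 CPM in those libraries, within the 95.5 to 118 of the other 4 drug libraries, and to 142 to 156 in IMQ_Veh and 80.6 to 84.6 in UTX_Veh. Without Il1r2 as well, the remaining 7 summed to 31.1 and 37.3 CPM there, against 57.2 to 66.5 in the other drug libraries, 109 to 114 in IMQ_Veh and 17.0 to 22.0 in UTX_Veh. In UTX_Veh, Fpr1 was at 0 while Csf3r (1.37 ± 0.288 CPM), Cxcr2 (4.67 ± 0.765) and Mmp9 (13.1 ± 1.46) were present. Not every marker went the way of the sum, since Il1r2 averaged 36.5 ± 5.03 CPM in IMQ_Veh and 62.4 ± 8.52 with GW3965, and Mmp9 10.7 ± 5.58 in IMQ_Veh. Lce3c to Lce3f were also lowest in these libraries within their drug groups. The part of inflammation, cell makeup or library in the Lce3 values was not tested. Keratinocyte marker sums differed less, at 60100 to 77600 CPM with GW3965, 59600 to 68900 with troglitazone and 55400 to 77400 in IMQ_Veh. Single keratinocyte markers went both ways against IMQ_Veh, from -0.72 to 0.99 (log2) with GW3965 and -0.79 to 0.57 with troglitazone. Macrophage sums were 331 to 454 in UTX_Veh, 418 to 1020 in IMQ_Veh, 682 to 934 with GW3965 and 830 to 1060 with troglitazone, and T cell sums were 94.1 to 153 in all groups. Muscle sums were 10100 to 11600, 1420 to 5450, 5950 to 8300 and 4240 to 6340 CPM in the same order of groups, cartilage 1350 to 1970, 217 to 721, 622 to 883 and 602 to 827, sebocyte 741 to 812, 357 to 790, 942 to 1200 and 758 to 952, and hair follicle 15.4 to 26.0, 7.24 to 11.2, 8.85 to 15.5 and 8.15 to 19.6. On each of these lists IMQ_GW3965 replicate 1 and IMQ_Troglitazone replicate 3 had the highest sum of their drug group. Their muscle sums were 8300 and 6340 CPM, cartilage 883 and 827, sebocyte 1200 and 952, and hair follicle 15.5 and 19.6. Tissue makeup thus also differed in the libraries where Lce3a and Lce3b were lowest.

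As a whole the family had 4.73 ± 1.47 CPM (SD, n = 3) in UTX_Veh, 693 ± 181 in IMQ_Veh, 427.5 ± 107 with GW3965 and 337 ± 91.7 with troglitazone. These means were 147-fold, 90.4-fold and 71.3-fold that of UTX_Veh, and the drug groups were at 61.7% and 48.6% of IMQ_Veh. Replicate 1 of IMQ_GW3965 (307 CPM) and replicate 3 of IMQ_Troglitazone (242 CPM) were again the lowest of the imiquimod libraries. The family sum does not depend on how reads were divided among members.

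The drugs differed little from each other in the Lce3 genes. The log2 difference of IMQ_GW3965 from IMQ_Troglitazone was 0.27 ± 0.51 (SE) for Lce3a, 0.28 ± 0.54 for Lce3b, 0.37 ± 0.19 for Lce3c, 0.41 ± 0.29 for Lce3d, 0.33 ± 0.27 for Lce3e and 0.29 ± 0.29 for Lce3f, and the groups overlapped for every member. The number of members called was 0 with edgeR, DESeq2 and limma-voom and at an unadjusted p under 0.05, where edgeR called 1.86% of all genes (1.08% higher and 0.782% lower). For Lce3a and Lce3b the difference changed sign, to between -0.12 and -0.14, without IMQ_GW3965 replicate 3 or without IMQ_Troglitazone replicate 3. The direction also depended on the scale. Mean TPM of Lce3a, Lce3b and Lce3f were higher with troglitazone (93.8, 127 and 192) than with GW3965 (88.1, 119 and 186). Those of Lce3c, Lce3d and Lce3e were higher with GW3965 (407, 306 and 257.2 against 394, 290 and 256.8). The compounds and their doses differ, and a difference that misses the threshold does not show that they act alike.

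The Lce1 and Lce6a genes, relatives that belong to the normal barrier, were set beside the family in the same libraries. Summed TPM of these 15 genes were 8226 ± 385 (SD) in UTX_Veh, 4786 ± 1160 in IMQ_Veh, 11390 ± 1720 with GW3965 and 10150 ± 2180 with troglitazone, while those of the 6 Lce3 genes were 22.8 ± 7.66, 2310 ± 485, 1364 ± 234 and 1353 ± 355. The log2 of Lce3 over Lce1 and Lce6a TPM was -8.55 ± 0.54, -1.04 ± 0.30, -3.07 ± 0.43 and -2.92 ± 0.64. It was highest in the 3 IMQ_Veh libraries (-1.36 to -0.77), intermediate in the 6 drug libraries (-3.65 to -2.46) and lowest in UTX_Veh (-9.06 to -7.99), with no overlap between the 3 ranges. On the TMM-scaled CPM scale the Lce1 and Lce6a sums were 2430 ± 180 in UTX_Veh, 1998 ± 469.5 in IMQ_Veh, 4879 ± 161 with GW3965 and 3520 ± 800.5 with troglitazone. IMQ_Veh was thus at 82.2% of UTX_Veh in CPM and at 58.2% in TPM, and at 95.9% in CPM without Lce1m. Its lower sum therefore depends on the scale and, in CPM, largely on 1 gene. The TPM sum without Lce1m was not computed. The Lce3 sum with troglitazone was 58.6% of IMQ_Veh in TPM against 48.6% in CPM, and 59.0% against 61.7% with GW3965. The log2 ratio in CPM kept the 3 ranges apart, at -1.85 to -1.25 in IMQ_Veh, -4.12 to -2.94 in the drug libraries and -9.55 to -8.51 in UTX_Veh. Because this ratio contains the Lce3 levels it carries no test.

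**Figure D5:**
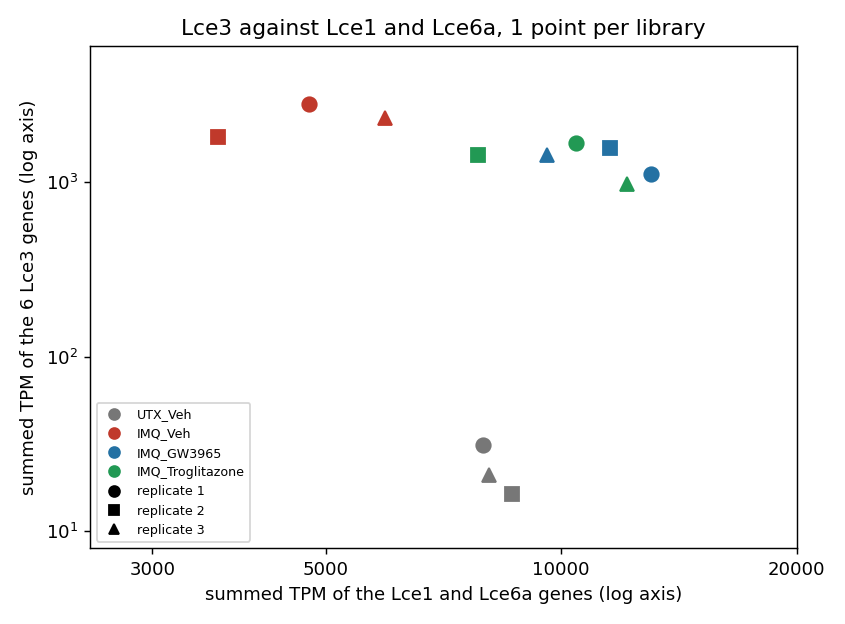
Summed TPM of the 6 Lce3 genes (vertical) against that of the 15 Lce1 and Lce6a genes (horizontal), both on log axes, 1 point per library, colours for groups and symbols for replicates. The IMQ_Veh libraries combine Lce3 sums of 1817 to 2787 with the lowest Lce1 and Lce6a sums, the drug libraries lie below and to the right of them, and UTX_Veh has Lce3 sums of 16.3 to 31.2.

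Of the 15 Lce1 and Lce6a genes tested with edgeR, 5 rose and 2 fell in IMQ_Veh against UTX_Veh (median log2 -0.02), 15 rose with GW3965 (median 1.28) and 14 rose with troglitazone (median 0.80) against IMQ_Veh. Lce1m had the largest of these changes, from 390 ± 48.5 CPM in UTX_Veh to 41.5 ± 15.5 in IMQ_Veh (log2 -3.23 ± 0.33 SE, edgeR adjusted p = 1.09e-05), 196 ± 55.9 with GW3965 (2.24 ± 0.32, edgeR adjusted p = 0.006) and 139 ± 51.5 with troglitazone (1.75 ± 0.31, edgeR adjusted p = 0.0126). For GW3965 the count was 15 whichever library was left out. For troglitazone it was 4, 8, 6 and 5 without IMQ_Veh replicate 1, IMQ_Veh replicate 2, IMQ_Troglitazone replicate 1 and IMQ_Troglitazone replicate 3, and edgeR's adjusted p of Lce1m was 0.0536 without IMQ_Veh replicate 1. With the lane field as a term edgeR called 15 of these genes with GW3965 and 8 with troglitazone. Lce1 genes are also near copies of each other, so single members are uncertain.

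Among the Sprr genes, which encode small proline-rich crosslinkers of the envelope, 13 of 14 tested rose in IMQ_Veh against UTX_Veh (median log2 7.85), and 1 rose and 5 fell with GW3965 (median -1.77) and 1 rose and 10 fell with troglitazone (median -1.79). Sprr2b went from 0.0982 ± 0.0999 CPM in UTX_Veh to 493 ± 198 in IMQ_Veh (log2 12.24 ± 1.17 SE, edgeR adjusted p = 7.69e-06, and 13.38 without UTX_Veh replicate 3) and 62.4 ± 43.3 with GW3965 (-2.99 ± 0.66, edgeR adjusted p = 0.0263). That last call ended without IMQ_Veh replicate 1 (edgeR adjusted p = 0.0823), IMQ_GW3965 replicate 1 (0.0829) or IMQ_GW3965 replicate 2 (0.0684). The Sprr count with GW3965 was 0 without IMQ_Veh replicate 1 or IMQ_GW3965 replicate 1, 2 without IMQ_GW3965 replicate 2 or 3 and 10 without IMQ_Veh replicate 3. With troglitazone it was 0 without IMQ_Veh replicate 1 or IMQ_Troglitazone replicate 3, 3 without IMQ_Troglitazone replicate 1 or 2, and 6 without IMQ_Veh replicate 2. With the lane field as a term it was 3 with GW3965 and 4 with troglitazone.

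All 3 crosslinking enzymes tested rose in IMQ_Veh against UTX_Veh (median log2 1.99), led by Tgm3, an epidermal transglutaminase, from 50.9 ± 13.2 to 561 ± 76.2 CPM (3.46 ± 0.25 SE, edgeR adjusted p = 1.54e-06). Tgm3 alone of the 3 fell with GW3965 (-0.95 ± 0.23, edgeR adjusted p = 0.0362, and 0.0553 to 0.149 without any 1 library of either group other than IMQ_Veh replicate 3) and with troglitazone (-1.04 ± 0.23, edgeR adjusted p = 0.0235, and 0.0972 and 0.0911 without IMQ_Veh replicate 1 or IMQ_Troglitazone replicate 3). Of 18 other envelope genes, 10 rose and 3 fell in IMQ_Veh (median log2 0.55), 6 rose with GW3965 (median 0.26), and 5 rose and 1 fell with troglitazone (median 0.31). Left-out libraries moved the GW3965 count to between 2 and 7 and the troglitazone count to between 2 and 8. All 14 cytokines tested rose in IMQ_Veh (median 5.83), and 3 fell with GW3965 and 4 with troglitazone (medians -2.70 and -2.27). These counts were 0 to 6 and 1 to 7 when 1 library was left out. Of 12 epidermal transcription factors, 10 rose and 1 fell in IMQ_Veh (median 1.24), 2 fell with GW3965 and 1 with troglitazone (medians -0.19 and -0.22), and these drug counts were 0 to 3 and 0 to 1 when 1 library was left out. Between the drugs, 0 of the 50 envelope genes outside the Lce3 family passed with edgeR, 16 were at an unadjusted p under 0.05, DESeq2 called 3 and limma-voom 1.

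Genes whose levels followed the Lce3 mean most closely were ranked by Pearson's r on log2(CPM + 0.5), as a description over libraries that share their groups and depth. Over all 12 libraries the closest were Teddm3 (0.997), then Klk13, Stfa3, Cnfn, Gjb6 and Rbp2 (each 0.996), Smox and Klk9 (each 0.995). The gap between UTX_Veh and the imiquimod groups sets these values, since 13.31% of named genes were above 0.9. Over the 9 imiquimod libraries, where 0.86% of named genes were above 0.9, the closest was Cnfn (0.986), which encodes cornifelin, a protein of the cornified envelope, followed by Gnb1 (0.977), Bak1 (0.972), Gpx1 (0.972), Teddm3 (0.970), the basal keratin Krt14 (0.968), Tmem50b (0.967) and Rnpep (0.966). The members themselves correlated with their own mean at 0.983 (Lce3d and Lce3f), 0.974 (Lce3c), 0.953 (Lce3a), 0.946 (Lce3b) and 0.919 (Lce3e). Cnfn had 69.5 CPM in UTX_Veh, 720 in IMQ_Veh, 493 with GW3965 and 419 with troglitazone on average.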

How the data were processed

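Bulk mRNA libraries from ear skin were grouped by GEO's labels into 4 groups of 3. Per the submitters' processing notes, the tools were FastQC, Trim Galore, STAR (2.7.3a) and RSEM (1.3.3), and the build was GRCm38, also called mm10. Annotation release, read length and strand setting: not given in the sources used here. Each library has its own gene table, deposited by the authors with RSEM's expected counts, which are estimated reads per gene that are neither scaled for depth nor always whole. The same deposited tables give TPM, scaled by the authors for transcript length and library, which was used to compare levels between genes and for the summed levels of the Lce3 and of the Lce1 and Lce6a genes, the latter also given in CPM. Identifiers were matched to GENCODE M21 (52135 of 55416).

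Expected counts were rounded and tested with edgeR's quasi-likelihood test (edgeR 4.0.16, R 4.3.3) on all 12 libraries in 1 fit with TMM scaling, filterByExpr by group (17130 genes) and Benjamini-Hochberg adjustment over all of them at 0.05, with 8 residual degrees of freedom and a common dispersion of 0.0306. The 6 members passed the filter, which for all but Lce3c rests on the imiquimod groups. The SE of a log2 fold was back-calculated as the absolute fold over the square root of edgeR's F statistic. It therefore comes from the fitted model and not directly from the spread of the 3 libraries. DESeq2 1.42.0 and limma-voom (limma 3.58.1) were alternatives, as were RLE and upper-quartile scaling, other low-count filters, a block for the replicate number, a term for the lane field, the 2 groups alone and leaving out libraries. The fits were also run on simulated data with known changes and the same dispersion for every gene. The real libraries were less even, with a chi-square per degree of freedom of 8.29 to 205.49 within groups. The simulation therefore does not vouch for the drug comparisons.

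Members and lists were chosen with earlier results of these data known. Genes outside the family were named by rule, as the called gene with the largest log2 fold in each direction of a list with at least 1 CPM, or as the 8 genes most correlated with the family mean; only some of the first kind are printed. Same-numbered libraries deviated together in troglitazone against IMQ_Veh (correlations 0.116, 0.283 and 0.144), and the block was read as a pairing there by a cutoff on the lowest correlation. In IMQ_Veh against UTX_Veh (0.082, 0.290, 0.397) the cutoff was missed by the 0.082 alone. It was also missed in GW3965 against IMQ_Veh (-0.229, 0.048, -0.012) and between the drugs (-0.150, 0.159, -0.254). The labels do not say that the numbers pair libraries, so this reading rests on the data and the cutoff alone. Promoters are from RefSeq (GRCm38.p6, 32851 searched), with 6 of 6 members matched by symbol.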

Additional observations from a re-analysis of the deposited data

How the results depend on the processing

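The 6 members were called higher in IMQ_Veh than in UTX_Veh in every alternative run. They were chosen on these groups, so nothing is read from those calls, and 33% of all genes were higher in the main run. Of 432 recomputed member folds, 431 moved by less than the spread between replicates. That spread was the square root of the summed variances of log2(CPM + 0.05) in the 2 groups, a wide allowance. It took in a move of Lce3d from 8.21 to 9.66 without UTX_Veh replicate 1, and every change of sign. Genes called in IMQ_Veh against UTX_Veh were 9342 to 11280 when 1 library was left out. Upper-quartile scaling put the median log2 of all genes there at -0.114 instead of 0.008. Calls in the drug comparisons depended on the settings, and the cause was not tested. For GW3965 against IMQ_Veh (1129 genes, 0 members, 28 other envelope genes), the genes called were 2222 with DESeq2, 549 with the lane field as a term, 3041 without IMQ_Veh 3 and IMQ_GW3965 3 together and 102 with the 2 groups alone, and 105 to 3645 when 1 library was left out. Members called were 1 with limma-voom, 2 without a low-count filter and 1 without those 2 libraries, and 0 to 1 when 1 was left out. For GW3965 the totals over all genes with limma-voom and without a filter are not given here. Other envelope genes were 13 with the 2 groups alone and 17 to 34 when 1 library was left out. For troglitazone against IMQ_Veh (1600 genes, 2 members, 32 other envelope genes), the genes called were 2590 with DESeq2, 1009 with the lane field, 991 with block and lane, 4166 without those 2 libraries, 0 with the 2 groups alone and 162 to 4460 when 1 was left out. Members called were 4 with DESeq2, limma-voom or no filter, 1 with the replicate block, 0 with the lane field, with block and lane or with the 2 groups alone, and 0 to 4 when 1 library was left out. For troglitazone, too, the limma-voom and no-filter totals over all genes are not given here. Other envelope genes were 17 with the lane field, 16 with block and lane, 0 with the 2 groups alone and 7 to 38 when 1 library was left out. Between the drugs (319 genes, 0 members, 0 other envelope genes), the genes called were 960 with DESeq2, 140 without a filter, 131 with the replicate block, 26 with block and lane, 0 without those 2 libraries, 9 with the 2 groups alone and 0 to 73 when 1 library was left out. Other envelope genes were 3 with DESeq2 and 1 with limma-voom. With the replicate block the genes called were 10722, 1426 and 1715 in the 3 comparisons with IMQ_Veh. For the troglitazone comparison, where the numbers were read as a pairing, the block also ended the call of Sprr2b and left Lce3c as the 1 member called, and it changed no member call elsewhere. Member folds changed sign in 6 cases, all of Lce3a or Lce3b between the drugs. Leaving out 1 library left a group of 2, and depth limits the UTX_Veh values of all members but Lce3c.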
